A study of Mus musculus with 8 samples.

Results

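The genes for the proteins of the cytosolic ribosome were followed in whole mouse kidney. They were all protein-coding genes whose symbol is Rpl or Rps, a number and optional letters, together with Rplp0, Rplp1, Rplp2 and Rpsa, leaving out the Rps6k kinases, Rps19bp1 and symbols ending in -ps. This gave 82 of the 47643 gene IDs in the count files: 47 of the large subunit (Rpl), 32 of the small subunit (Rps and Rpsa) and 3 of the stalk (Rplp). Rps3a1, Rpl22l1 and Rpl7l1 carry a digit after the letters and fell outside the rule as written, so they are given separately. The kidneys came from 4 wild type mice (WT 1 to 4) and 4 mice of genotype Six2-Cre;Cox10-fl/fl (cKO 1 to 4). Cox10 encodes an enzyme of heme A synthesis that cytochrome c oxidase needs, and the Cre, driven by Six2, acts in the progenitors of the nephron epithelium, so that collecting duct, stroma, vessels and blood cells keep the gene. Replicate 2 of each genotype was 2.5 months old and the other mice were 3 months old. The labels give no Cre-only or floxed-only control, and nothing in them says more of the source of each replicate, so p-values measure the spread between these 8 libraries.

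The large subunit joins amino acids into protein, the small subunit reads the mRNA, and the stalk, built from Rplp0, Rplp1 and Rplp2, recruits the elongation factors. Each ribosome holds about equal numbers of most of these proteins, and their mRNAs, which are short and abundant, begin with a run of pyrimidines that lets mTOR signalling set how strongly they are translated. A few members have a relative that can take their place, such as Rpl3l for Rpl3 in muscle, Rpl36al for Rpl36a, Rps27l for Rps27, and Rpl10l and Rpl39l in the testis.

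The libraries held 9454830 to 15838026 counts. Cox10 itself was measured at 24.6, 19.6, 19.2 and 20.4 CPM (counts scaled to a common library size of 1e6) in WT 1 to 4 and at 19.5, 10.9, 20.8 and 22.3 CPM in cKO 1 to 4. The groups overlapped, with a log2 fold change of -0.19 ± 0.24 (SE) and an adjusted p of 0.619 in edgeR's quasi-likelihood test (exact two-sided permutation p = 0.514, smallest possible 0.0286); whether gene-level counts would register the deleted part was not tested. Reads from Y-linked genes were present in WT 2, WT 3, WT 4 and cKO 3 and at 0 in WT 1, cKO 1, cKO 2 and cKO 4, so sex was unevenly spread over the genotypes. The 4 proximal tubule markers summed to 4596 to 6948 CPM in WT and 979.9 to 3345 CPM in cKO, so the defining markers of kidney tubule were abundant in every library.

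Ribosomal protein transcripts took up a larger share of the counts in cKO kidneys. They made up 4.15%, 3.88%, 1.61% and 2.10% of all counts in WT 1 to 4, and 4.52%, 11.9%, 4.85% and 6.40% in cKO 1 to 4. WT 3 and WT 4 were the lowest, cKO 2 stood far above the rest, and cKO 1 lay just above WT 1. The mean share was 2.93% ± 1.27 over the 4 WT libraries and 6.91% ± 3.40 over the 4 cKO libraries (SD), a ratio of 2.35. The difference of 3.97 percentage points ranged from 2.32 without cKO 2 to 4.77 without cKO 1. These are shares of counts from bulk samples. More cells rich in such transcripts, more such transcripts per cell and fewer other transcripts thus cannot be told apart.

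**Figure D1:**
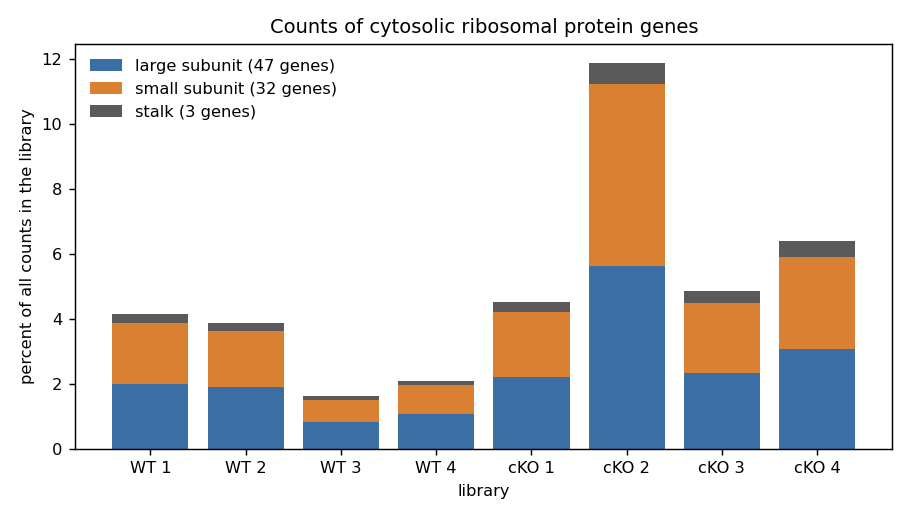
Percent of all counts in each library that fell on ribosomal protein genes, stacked by large subunit, small subunit and stalk; each bar is 1 library, so no error is drawn. The cKO bars reach 4.52% to 11.9% and the WT bars 1.61% to 4.15%, with cKO 2 at 11.9%.

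The division of those counts between the ribosome's parts moved much less than their total. The large subunit held 48.1%, 48.7%, 51.4% and 51.3% of the ribosomal protein counts in WT 1 to 4 and 48.7%, 47.3%, 47.9% and 48.0% in cKO 1 to 4. WT 3 and WT 4, the libraries with the smallest ribosomal share, had the largest large-subunit portion, and the groups overlapped. The small subunit held 42.4% to 45.3% in WT and 44.0% to 47.3% in cKO, and the stalk 6.02% to 6.63% in WT and 5.37% to 7.91% in cKO.

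Gene by gene, 80 of the 82 members had enough counts to test, while Rpl10l and Rpl39l, the testis relatives of Rpl10 and Rpl39, had 0 counts in all 8 libraries. The fitted log2 fold change, cKO over WT, was above 0 for 79 of the 80, with a median of 1.04 beside -0.01 over all 13829 genes tested. Only 3 members, 3.75% of those tested, were called higher at an adjusted p under 0.05 (edgeR's quasi-likelihood test, Benjamini-Hochberg over all genes), and 0 were called lower. Over all genes, 16.7% were called in either direction, 9.57% higher and 7.14% lower; other fits, given further on, called between 0 and 38 members higher. A further 27 members had an adjusted p between 0.05 and 0.1, and 60 of the 80 had an unadjusted p under 0.05, beside 33.1% of all genes tested. The standard errors were wide, with a median of 0.45 on the log2 scale for these genes against 0.28 for all genes.

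The subunits gave like values. The median log2 fold change was 1.01 over the 45 tested large-subunit genes, 1.11 over the 32 small-subunit genes and 1.02 over the 3 stalk genes, and 1 gene was called in each. The lower and upper quartiles of the members' log2 fold changes were 0.94 and 1.22. The library that was highest was cKO 2 for 77 of the 80 (all but Rpl28, Rps2 and Rpl3l), and the lowest was WT 3 for 79 of the 80.

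**Figure D2:**
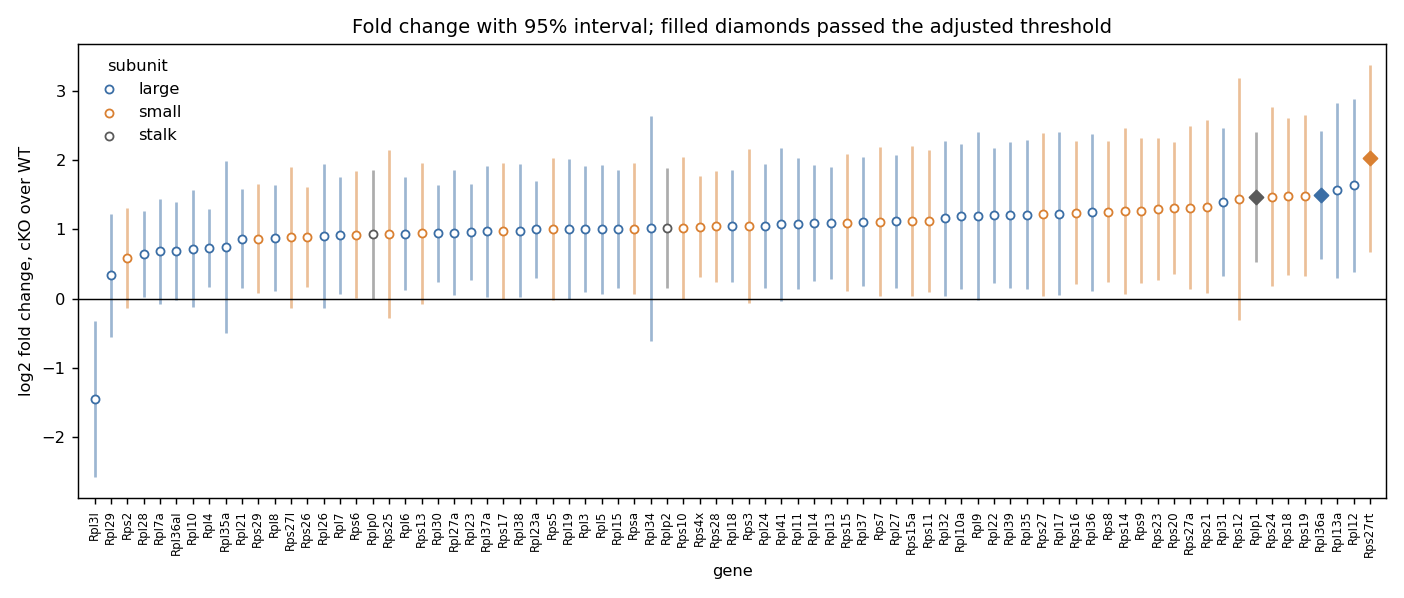
Fitted log2 fold change, cKO over WT, of 79 of the tested genes in order of size, with 95% intervals, coloured by subunit. The values run from -1.45 for Rpl3l to 2.02 for Rps27rt, most lie near 1, and the filled diamonds mark the 3 genes that passed the adjusted threshold.

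The order of the libraries was shared by most members. On a log2 scale against the WT mean (CPM + 0.5), the median member stood at 0.68, 0.60, -0.85 and -0.41 in WT 1 to 4 and at 0.52, 2.06, 0.63 and 1.01 in cKO 1 to 4. On this TMM-scaled measure WT 1 and WT 2 lay among cKO 1 and cKO 3, so the groups overlapped. Only 11 of the 80 members had every cKO library above every WT library (among them Rpl4, Rpl36a, Rps4x, Rps18, Rps26 and Rps27rt), 13.8% of them, beside 13.1% of all genes tested. That share is close to the background. With near-identical copies added, Rps18 was at 594.4 CPM in WT 1 and 594.1 CPM in cKO 3, so its groups overlapped. Those of Rps27rt overlapped when it was summed with Rps27, as given below.

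The windows below show members with and without a run of pyrimidines around the annotated start. Of the 82 symbols, 62 matched the RefSeq promoter table (GRCm38.p6), with 74 windows. Each line below gives 30 bases before and 20 from the annotated start, 5′ to 3′ on the gene's strand, with runs of at least 8 C or T in capitals. Rpl7a and Rpl27a are shown for their long runs, Rps27rt and Rpl36a as called members without one, Rps27 as the parent of Rps27rt, and Rpl12 and Rpl3l, also without a run, as members near the upper and at the lower end of the fold changes.
Rpl7a, chr2:26910777-26910826, plus strand: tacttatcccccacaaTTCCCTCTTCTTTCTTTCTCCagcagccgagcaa
Rpl27a, chr7:109519165-109519214, plus strand: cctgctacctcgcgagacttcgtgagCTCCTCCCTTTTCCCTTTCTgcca
Rps27rt, chr9:114982720-114982769, minus strand: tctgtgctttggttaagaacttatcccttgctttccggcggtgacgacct
Rpl36a, chrX:134585624-134585673, plus strand: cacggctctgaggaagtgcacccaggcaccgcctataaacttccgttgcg
Rpl12, chr2:32961682-32961731, plus strand: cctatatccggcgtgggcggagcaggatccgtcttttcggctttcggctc
Rps27, chr3:90213629-90213678, minus strand: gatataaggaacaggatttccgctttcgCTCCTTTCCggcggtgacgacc
Rpl3l, chr17:24727796-24727845, plus strand: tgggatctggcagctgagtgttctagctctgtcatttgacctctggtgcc

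Such a run was present in 44.6% of the 74 member windows and in 20.2% of all 32851 windows of this length. It could lie anywhere in the window, also wholly before the start, so these shares do not give how many mRNAs begin with one. In the full 300-base promoters (250 before and 50 after the start), searched on both strands, CTTTCC occurred in 51.4% of member promoters and 26.6% of all. Within the shorter window and on the gene's strand it occurred in 17.6% of member windows and 2.44% of all; its letters can lie inside a C or T run. CCGGAAG, the core bound by ETS-family factors, occurred in 35.1% of member promoters and 8.86% of all, and TATAAA in 8.11% and 13.6%. These are matches of letters, and no count in these libraries measures binding or translation.

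Of the large subunit, Rpl36a was the gene called higher. Its protein sits near the exit site for spent tRNA. It was at 205, 159, 73.1 and 91.6 CPM in WT 1 to 4 and at 217, 664, 247 and 365 CPM in cKO 1 to 4. Every cKO library was above every WT library, by little for cKO 1 and by most for cKO 2. The log2 fold change was 1.50 ± 0.42 (SE), with an adjusted p of 0.0318 in edgeR's quasi-likelihood test.

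Rpl36al, a relative on chromosome 12 of the X-linked Rpl36a, was at 214, 262, 115 and 144 CPM in WT 1 to 4 and 218, 457, 235 and 274 CPM in cKO 1 to 4. The groups overlapped, as WT 2 was above cKO 1 and cKO 3, and the log2 fold change of 0.69 ± 0.32 (SE) had an adjusted p of 0.162 (edgeR). Whether the pair differed from each other in response was not tested. Their coding sequences are equally long (321 bases) and 87.9% identical, so most reads can tell them apart, as the first 60 coding bases show, with bases that differ from Rpl36a in capitals.
Rpl36a, chrX:134585654-134588062: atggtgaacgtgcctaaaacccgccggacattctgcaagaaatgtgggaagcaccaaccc
Rpl36al, chr12:69182731-69184083: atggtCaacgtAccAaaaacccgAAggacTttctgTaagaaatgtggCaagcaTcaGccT

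Of the stalk, Rplp1, which with Rplp2 forms the flexible dimers that contact elongation factors, was called higher. It was at 781, 597, 218 and 321 CPM in WT 1 to 4 and at 779, 1913, 1072 and 1557 CPM in cKO 1 to 4. WT 1 and cKO 1 were nearly equal, so the groups overlapped by that pair alone. The log2 fold change was 1.47 ± 0.43 (SE) and the adjusted p 0.0370 (edgeR's quasi-likelihood test). Rplp1 was also the most abundant member per kilobase of merged exons, at 960.5 ± 515 CPM per kb in the 4 WT libraries and 2666 ± 1010 in the 4 cKO libraries (SD).

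The other stalk genes did not pass. Rplp0, the base of the stalk, was at 1874, 1925, 587 and 849 CPM in WT 1 to 4 and at 1631, 3754, 2026 and 2545 CPM in cKO 1 to 4. WT 1 and WT 2 were above cKO 1. Its log2 fold change was 0.93 ± 0.43 (SE), with an adjusted p of 0.152 (edgeR). Rplp2 had a log2 fold change of 1.02 ± 0.40 (SE), with an adjusted p of 0.0997 in the same edgeR test.

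Of the small subunit, Rps27rt, an intronless gene on chromosome 9, had the largest value of all members. It was at 59.6, 43.7, 11.8 and 17.8 CPM in WT 1 to 4 and at 72.3, 290.1, 72.6 and 105 CPM in cKO 1 to 4. All cKO libraries were above all WT libraries, and cKO 2 was far above the other 3 of its group. The log2 fold change was 2.02 ± 0.61 (SE), with an adjusted p of 0.0472 in edgeR's quasi-likelihood test.

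This call is uncertain, because Rps27rt shares its whole coding sequence with Rps27. The first 60 coding bases show it, with bases that differ from Rps27 in capitals. Rps27 and Rps27rt have 0 differing bases over 255, whereas Rps27l, which p53 can induce, has 61.
Rps27, chr3:90212522-90213651: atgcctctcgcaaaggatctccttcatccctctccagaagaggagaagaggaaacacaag
Rps27rt, chr9:114982366-114982739: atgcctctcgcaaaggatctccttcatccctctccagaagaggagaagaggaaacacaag
Rps27l, chr9:66946086-66949516: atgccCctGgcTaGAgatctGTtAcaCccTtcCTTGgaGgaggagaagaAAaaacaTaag
Reads within the coding part cannot be told apart between the first 2, and the authors' counting divided them by estimate. Summed, Rps27 and Rps27rt were at 562, 583, 158 and 219 CPM in WT 1 to 4 and at 491, 2007, 526 and 749 CPM in cKO 1 to 4. The groups then overlapped, as WT 1 and WT 2 were above cKO 1 and cKO 3, and the log2 fold change of 1.31 ± 0.54 (SE) had an adjusted p of 0.118 (edgeR).

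Rps27 alone was at 502, 539, 146 and 201 CPM in WT 1 to 4 and at 419, 1717, 454 and 644 CPM in cKO 1 to 4, with a log2 fold change of 1.22 ± 0.54 (SE) and an adjusted p of 0.138 (edgeR). Rps27l was at 251, 307, 103 and 151 CPM in WT 1 to 4 and at 222, 782, 258 and 238 CPM in cKO 1 to 4. Apart from cKO 2, its cKO libraries lay within the WT range, and the log2 fold change was 0.89 ± 0.46 (SE), adjusted p 0.205 (edgeR).

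The 3 calls were lost in most fits with 1 library fewer. Leaving out WT 2, WT 3, WT 4, cKO 2 or cKO 4 in turn ended all of them, and leaving out cKO 3 also ended that of Rplp1 (adjusted p 0.0535). Over the 8 fits that each left out a library, the adjusted p (edgeR) ran from 0.0155 to 0.0906 for Rpl36a, from 0.0142 to 0.103 for Rplp1 and from 0.0195 to 0.122 for Rps27rt. The log2 fold changes stayed above 0 and ran from 1.06 to 1.78, from 1.22 to 1.81 and from 1.33 to 2.46, and were larger than with all libraries when WT 2 was left out (1.59, 1.59 and 2.18). Without cKO 2 the median member had a log2 fold change of 0.61 and 0 members were called, beside 7.72% of all genes higher and 4.18% lower. With a term for the presence of Y-linked reads the median was 0.71, 0 members were called and the smallest of the 3 adjusted p-values was 0.131 (Rplp1, edgeR), beside 5.17% of all genes called higher and 1.63% lower.

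The number called also turned on the tool and the terms of the fit. DESeq2 called 38 members higher, with 12.4% of all genes, and 1 lower (Rpl3l), with 10.5%. Scaling by library size alone, which moved the median of all genes to 0.15 on the log2 scale, gave 36 higher and 0 lower with a median member of 1.21, beside 13.5% and 3.98% of all genes. A term for age gave 19 higher and 1 lower, beside 11.6% and 9.9%, and leaving out WT 1 gave the same counts beside 11.6% and 10.4%. With the replicate number as a block 18 were called higher and 0 lower, beside 9.51% and 6.46%. Whether the genotype difference depends on sex could not be settled, since WT without and cKO with Y-linked reads were 1 library each; that interaction called 0 of the 80 members and 0.0651% of all genes (edgeR), with 0 members at an unadjusted p under 0.05.

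Among the abundant members that were not called, Rps15, which sits where the subunits meet, was the second most abundant per kilobase. It was at 822, 761, 221 and 346 CPM in WT 1 to 4 and at 674, 1847, 908 and 1162 CPM in cKO 1 to 4. Only cKO 1 lay within the WT range. Its log2 fold change was 1.10 ± 0.45 (SE), adjusted p 0.116 (edgeR).

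Rpl19, a large-subunit protein that takes part in a bridge between the subunits, was at 1003, 1082, 335 and 474 CPM in WT 1 to 4 and at 877, 2681, 957 and 1271 CPM in cKO 1 to 4. Here cKO 1 and cKO 3 were below WT 1 and WT 2, and the log2 fold change was 1.00 ± 0.46 (SE), adjusted p 0.156 (edgeR). Rpl36 was at 325, 331, 87.8 and 143 CPM in WT 1 to 4 and at 265, 1086, 336 and 410 CPM in cKO 1 to 4, with a log2 fold change of 1.24 ± 0.52 (SE) and an adjusted p of 0.120 (edgeR).

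Rpl3, whose protein reaches towards the peptidyl transferase centre, and its muscle relative Rpl3l had fold changes of opposite sign. Rpl3 was at 946, 911, 366 and 470.4 CPM in WT 1 to 4 and at 873, 2375, 935 and 1204 CPM in cKO 1 to 4, with overlapping groups and a log2 fold change of 1.00 ± 0.42 (SE), adjusted p 0.119 (edgeR). Rpl3l was at 2.67, 8.95, 2.45 and 4.07 CPM in WT 1 to 4 and at 0.98, 2.28, 2.56 and 0.85 CPM in cKO 1 to 4. WT 2 was the highest and cKO 3 exceeded WT 3, so the groups overlapped. Its log2 fold change was -1.45 ± 0.51 (SE), with an adjusted p of 0.0750 (edgeR), and it lost the order of the libraries that the other members shared. Without WT 2 its log2 fold change was -0.91.

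**Figure D3:**
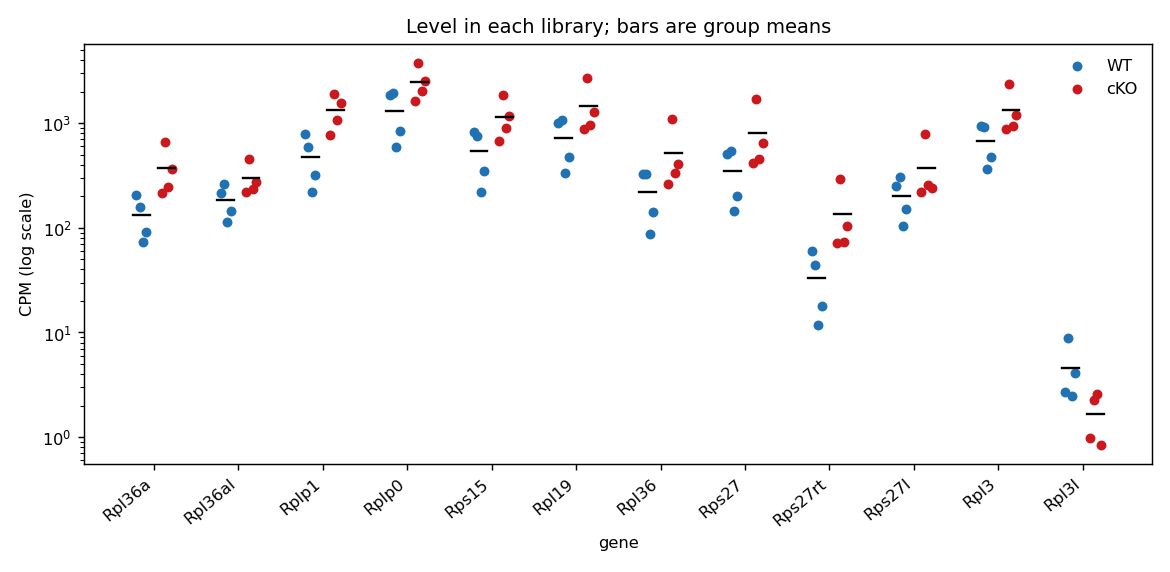
CPM on a log scale of 12 members in each of the 4 WT and 4 cKO libraries; each point is 1 library and each bar a group mean. In 11 of the genes the highest point is cKO 2, and Rpl3l lies lower in the cKO libraries (0.85 to 2.56 CPM) than in most WT libraries (2.45 to 8.95 CPM).

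Rpl39, the large-subunit protein at the exit tunnel, was at 373, 311, 102 and 143 CPM in WT 1 to 4 and at 330.1, 1025, 336 and 452 CPM in cKO 1 to 4. WT 1 lay above cKO 1 and cKO 3. Its log2 fold change was 1.21 ± 0.48 (SE), adjusted p 0.104 (edgeR). Rpl10, which completes the large subunit in the cytoplasm, was at 163, 123, 51.2 and 69.6 CPM in WT 1 to 4 and at 111, 265, 114 and 181 CPM in cKO 1 to 4, with a log2 fold change of 0.72 ± 0.39 (SE), adjusted p 0.216 (edgeR). These values hold a small part of its reads, as 89.1% of its counts lay at near-identical copies. With copies added it was at 1228, 1195, 544 and 650 CPM in WT 1 to 4. In cKO 1 to 4 the sum was 1201, 2254, 1145 and 1603 CPM. Its log2 fold change was then 0.78 ± 0.35 (SE), adjusted p 0.149 (edgeR).

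The members at the ends of the range stood as follows. Rpl12 of the stalk base (1.63 ± 0.56, SE) and Rpl13a (1.56 ± 0.58), which is known for a role outside the ribosome in silencing inflammatory mRNAs, had the next largest log2 fold changes after Rps27rt, with adjusted p-values of 0.0710 and 0.0865 (edgeR). Rps18 and Rps19 of the small-subunit head had 1.48 ± 0.52 and 1.49 ± 0.53. The lowest above 0 were Rpl29 at 0.34 ± 0.41, Rps2 at 0.58 ± 0.33 and Rpl28 at 0.64 ± 0.28.

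The members were also measured against the median member of the same library, which takes out the shift that all share. Rpl36a, Rps16, Rps20 and Rps27rt were higher in every cKO library than in every WT library, and Rpl29 was lower in every one. That is 4 of 80 higher and 1 lower, and of all genes set against the same median 1.32% were higher and 19.6% lower. The members centre on this median by construction, and its mean was higher in cKO. The shares of all genes are therefore no background for the members. On this scale the group difference, cKO minus WT, was 0.45 for Rpl36a, 0.23 for Rps16, 0.31 for Rps20, 1.01 for Rps27rt and -0.63 for Rpl29. In WT 3, cKO 1, cKO 3 and cKO 4, 30.5% to 31.9% of Rpl29 counts lay at near-identical copies, and at most 0.774% in the rest. The value for Rpl29 thus depends on where reads were placed. That of Rps27rt does too, as it shares its whole coding sequence with Rps27. Rps16 had 24.7% of its counts at copies, Rpl36a 5.09% and Rps20 2.30%. The measure against the median member was not taken with copies added or with Rps27rt summed into Rps27.

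The libraries also differed by transcript length in genes outside the family. The members' transcripts had a median length of 882 bases. Among the 114 other coding genes with transcripts of at most 600 bases, the library medians against the WT mean were 0.51, 0.51, -0.70 and -0.33 in WT 1 to 4 and 0.16, 1.00, 0.19 and 0.24 in cKO 1 to 4. Among the 4178 coding genes over 4000 bases they were -0.21, -0.26, 0.31 and 0.17 in WT and -0.11, -0.32, -0.23 and -0.20 in cKO. Short and long transcripts were thus displaced in opposite directions, furthest in WT 3 and cKO 2, which were also the lowest and the highest library for the median ribosomal protein gene.

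**Figure D4:**
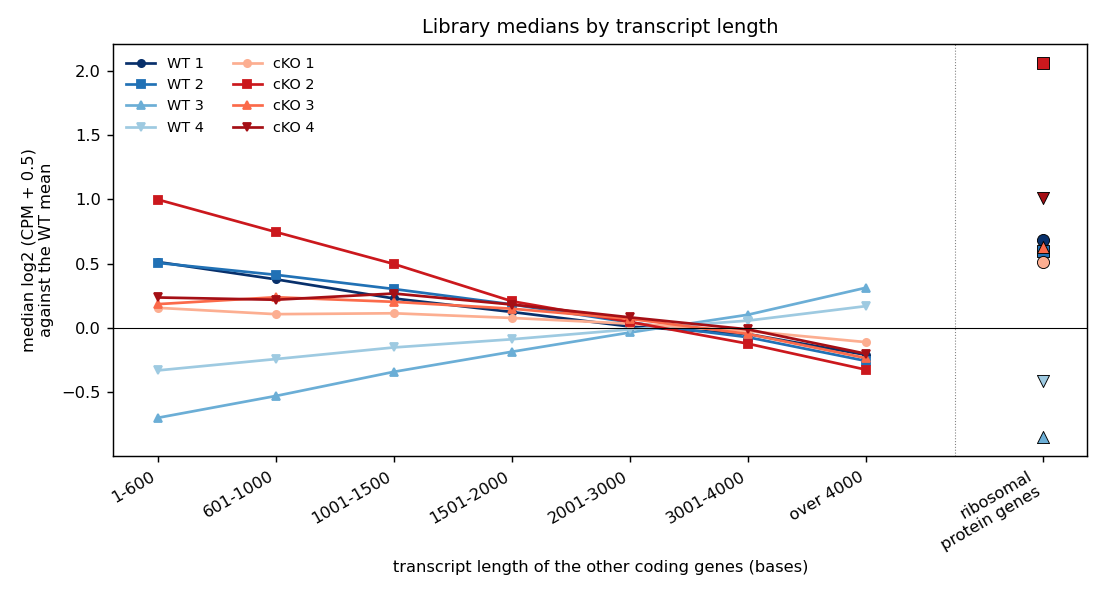
Median log2 (CPM + 0.5) against the WT mean for other coding genes in 7 classes of transcript length, 1 line for each library, and at the right the median ribosomal protein gene in the same libraries. The lines fan out towards short transcripts, from -0.70 (WT 3) to 1.00 (cKO 2) at up to 600 bases, and the ribosomal protein medians spread further, from -0.85 to 2.06.

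When each library's trend with transcript length among other coding genes was entered as an offset, the members' spread narrowed. Their library medians became 0.32, 0.18, -0.33 and -0.19 in WT 1 to 4 and 0.39, 1.31, 0.40 and 0.79 in cKO 1 to 4, and the groups no longer overlapped. The median log2 fold change was then 0.76, with 21 members called higher and 1, Rpl3l, lower, beside 11.2% and 9.07% of all genes (edgeR, adjusted p under 0.05). Rpl3l had a log2 fold change of -1.64 and an adjusted p of 0.0291 in that edgeR fit, and Rpl36a had 1.05 with 0.00663. Without cKO 2 as well, 9 members were called higher and Rpl3l lower, with a median of 0.52, beside 9.74% and 6.90% of all genes. This fit was chosen after the data were seen, and the source of the length trend was not tested.

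Many members share sequence with processed copies elsewhere in the genome, and the deposited counts divide reads between them. A search of the annotated transcripts (at least 90% identity over at least 50% of the copy) found 850 such copies, of which 174 had at least 10 counts over the 8 libraries and 401 had none. For 7 members more than 50% of the counts lay at copies. Rpl5, which with Rpl11 and the 5S rRNA can restrain Mdm2, had 98.8% of its counts at copies, and Rpl12 had 97.4%, Rpl27 89.4%, Rpl10 89.1%, Rpl23a 78.6%, Rps12 76.3% and Rpl27a 52.6%. At the other end, 51 members had under 1% of their counts at copies.

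Rpl5 is the member with the most. Its main copy, Gm15500, is a processed pseudogene with a coding part that matches Rpl5 at all 894 bases, of which the first 60 are printed, with no base in capitals since none differs.
Rpl5, chr5:107900502-107909005: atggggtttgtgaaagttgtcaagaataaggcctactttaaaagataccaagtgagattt
Gm15500, chr7:114705217-114706235: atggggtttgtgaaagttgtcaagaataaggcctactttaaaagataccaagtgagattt
Rpl5 itself was listed at 12.8, 13.1, 8.08 and 8.86 CPM in WT 1 to 4 and at 15.3, 45.8, 9.89 and 14.9 CPM in cKO 1 to 4. With its copies added it was at 1017, 1123, 418 and 538 CPM in WT 1 to 4 and at 1054, 4988, 953 and 1249 CPM in cKO 1 to 4. The sum placed it among the more abundant members, with cKO 3 below WT 1 and WT 2, and its log2 fold change became 1.41 ± 0.56 (SE), adjusted p 0.103, from 1.00 ± 0.43 (edgeR).

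**Figure D5:**
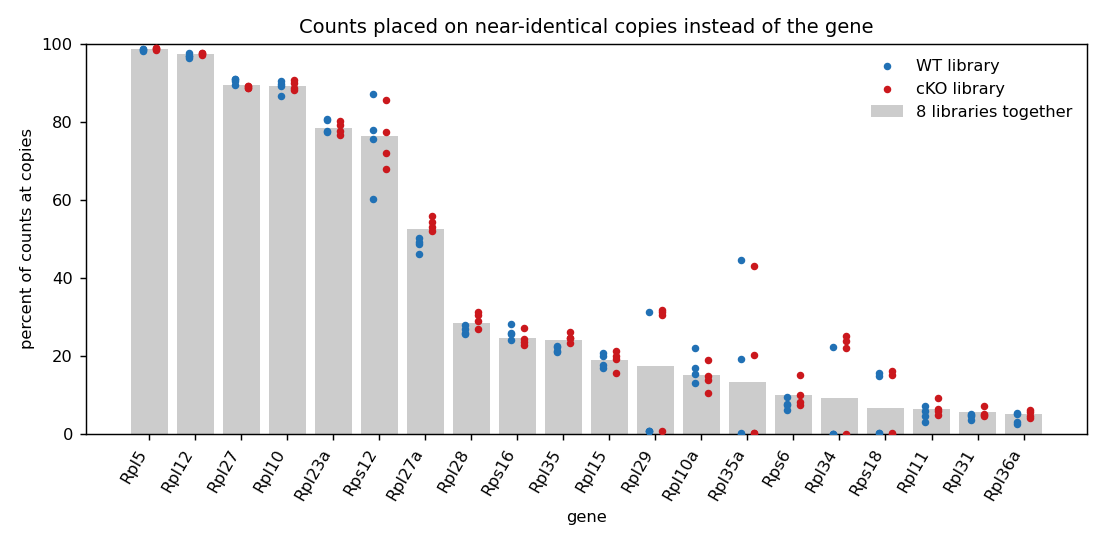
Percent of a member's counts, with those of its near-identical copies, that were listed at the copies, for the 20 members above 5%; grey bars pool the 8 libraries and points are single libraries. Rpl5 (98.8%) and Rpl12 (97.4%) lie almost wholly at copies in every library, whereas Rpl29, Rpl34, Rpl35a and Rps18 have libraries of both genotypes near 0 and others well above.

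Adding copies to all members left 3 called higher and 0 lower, with a median log2 fold change of 1.06, beside 9.68% and 7.22% of all genes called. Rps27rt, itself a member, was not added to Rps27 in this fit and was among the 3 (adjusted p 0.0459, edgeR). In a separate fit with Rps27rt summed into Rps27, 2 members were called higher, beside 2308 of all genes in either direction. Rpl12 with its copies had 1.77 ± 0.56 (SE) and an adjusted p of 0.0501 (edgeR), just outside the threshold. In some members the listed place varied by library: Rpl34 had 22.3% of its counts at copies in WT 3 and 22.1% to 25.1% in cKO 1, cKO 3 and cKO 4, whereas the other 4 libraries had no more than 0.0228%. Rpl29 divided in the same libraries, with 30.5% to 31.9% at copies in those 4 and at most 0.774% in the rest, so the fold changes of Rpl29 and Rpl34 depend on where reads were placed. With its copies added Rpl29 had a log2 fold change of 0.61 instead of 0.34. Rps18 divided in other libraries, with 14.7% to 16.2% at copies in WT 1, WT 2, cKO 3 and cKO 4 and at most 0.181% in the rest. With its copies added Rps18 had a log2 fold change of 1.39 ± 0.51 (SE).

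The members outside the symbol rule lay in the same range or lower. Rps3a1, a small-subunit protein, had a log2 fold change of 0.99 ± 0.39 (SE) and an adjusted p of 0.0993, Rpl22l1 1.01 ± 0.53 with 0.214, and Rpl7l1, a nucleolar relative of Rpl7, 0.10 ± 0.22 with 0.787 (edgeR). Rack1, the scaffold on the small subunit, had means of 825 ± 458 CPM over the WT libraries and 1729 ± 932 CPM over the cKO libraries (SD, n = 4 each).

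Other genes of translation were taken in 5 lists, whose counts stand beside the 9.57% of all genes called higher and 7.14% called lower. None of 11 tested elongation factors was called (edgeR, median log2 fold change 0.49), among them Eef1a1 at 0.61 ± 0.39 (SE) and Eef2 at 0.07 ± 0.28. Of 36 initiation factors 3 rose and 1 fell, shares at or below those of all genes, with a median of 0.28. Eif6, which keeps the large subunit from joining too early, rose by 1.22 ± 0.29 (SE, adjusted p 0.0153), as did Eif4a1 and Eif3f, while Eif4a2 fell by 0.89 (edgeR). Eif6 was at 101, 115, 57.1 and 75.1 CPM in WT 1 to 4 and at 128, 237, 185 and 258 CPM in cKO 1 to 4, without overlap.

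Of 76 tested ribosome biogenesis genes 2 rose and 1 fell, shares below those of all genes, with 68 of 76 values above 0 and a median of 0.24. Npm1 and Fbl, abundant nucleolar proteins, rose by 0.91 ± 0.28 and 0.68 ± 0.18 (SE), and Mdn1, the giant ATPase that releases factors from the maturing large subunit, fell by 1.97 (adjusted p 0.000665, edgeR). Mdn1 was at 11.0, 18.0, 17.0 and 18.6 CPM in WT 1 to 4 and at 4.33, 4.90, 3.20 and 4.05 CPM in cKO 1 to 4, without overlap. These 3 kept their direction with the length offset, where Fbl had an adjusted p of 0.172.

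Among 31 genes of mTOR signalling and translation control 2 rose and 2 fell, shares no larger than those of all genes, with a median of -0.12. Myc, which drives ribosome production, rose by 3.00 ± 0.47 (SE, adjusted p 0.00192, edgeR). It was at 1.98, 1.03, 2.69 and 2.72 CPM in WT 1 to 4 and at 9.52, 15.7, 9.60 and 34.2 CPM in cKO 1 to 4, without overlap. Eif4ebp1 rose by 1.47 ± 0.34 (SE), whereas Eif4ebp2 fell by 1.16 and Mtor, the kinase itself, fell by 1.73 (adjusted p 0.00810, edgeR). Of 12 tested genes of the response to stalled ribosomes and free ribosomal proteins 0 were called, with a median of -0.31, and Mdm2 had 0.25 ± 0.24 (SE). With the transcript length offset the median was 0.07 for the mTOR list and -0.03 for the stalled ribosome list.

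The proteins of the mitochondrial ribosome, which are coded in the nucleus too, showed no such displacement of their median. Of 78 genes tested 0 were called (edgeR), beside 9.57% of all genes higher and 7.14% lower, with a median log2 fold change of 0.07. With the transcript length offset 2 were called higher and 2 lower, beside 11.2% and 9.07% of all genes, with a median of -0.11. Without the offset their library medians were 0.27, 0.44, -0.48 and -0.20 in WT 1 to 4 and -0.04, 0.45, 0.08 and -0.06 in cKO 1 to 4, so WT 3 was lowest here too.

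Markers of several cell types moved with genotype in the same libraries. The injury markers Havcr1, Lcn2, Vcam1 and Spp1 all rose (4 of 4), summing to 456 to 1964 CPM in WT and 10845 to 25055 CPM in cKO. Macrophage markers rose in 5 of 6 (84.4 to 145 CPM in WT, 297 to 616 in cKO), cycling-cell markers in 5 of 5 (5.30 to 9.47 and 37.0 to 44.3), urothelial markers in 4 of 4 (9.47 to 33.8 and 62.1 to 104) and collecting duct markers in 2 of 3 (289.8 to 568 and 1013 to 2484). Fibroblast markers rose in 5 of 6, with Pdgfra lower, and summed to 118 to 203 CPM in WT and 432 to 666 CPM in cKO. Proximal tubule markers fell in 3 of 4 and were lowest in cKO 2, at 979.9 CPM, the library highest in ribosomal protein transcripts. With the transcript length offset 2 of these 4 were called lower, beside 9.07% of all genes, and their median log2 fold change went from -1.29 to -1.06. The part of all these cell type markers in the ribosomal protein result was not tested.

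Red blood cell genes fell in 4 of 4 tested, with a median log2 fold change of -4.90 (29.4 to 584 CPM in WT, 3.13 to 28.2 in cKO). Of the other lists, distal tubule genes fell in 1 of 2 and endothelial genes in 1 of 4, and T and NK cell genes rose in 1 of 3. Thick ascending limb, podocyte, B and plasma cell and adipocyte markers had 0 calls. Neutrophil and adrenal cortex markers were too low to test, with sums of at most 1.99 and 1.09 CPM and Cyp11b1 at 0 in all libraries. The share of counts from the mitochondrial genome was 9.23%, 4.51%, 9.05% and 8.26% in WT 1 to 4 and 5.05%, 4.10%, 4.74% and 4.10% in cKO 1 to 4.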

How the data were processed

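RNA from whole kidneys of 8 mice was prepared with a stranded poly(A) mRNA kit, per the labels' protocols. The authors deposited expected counts per Ensembl gene, 1 file for each library, made with STAR and RSEM on mm10, per the submitters' processing notes; their versions, and whether counting used strand, were not given in the sources used here. Expected counts divide reads shared by similar genes by estimate. Of 47643 IDs, 47224 matched a symbol in GENCODE vM21. Counts were rounded, filtered with filterByExpr, scaled by TMM and tested with edgeR 4.0.16 (robust quasi-likelihood, R 4.3.3), WT 1 to 4 against cKO 1 to 4 with no covariate, two-sided, with Benjamini-Hochberg adjustment over 13829 genes at 0.05. On data simulated from this comparison (13659 genes), the fit called 24% of 2-fold and 88% of 4-fold changes, with 6 of 118 calls false. Alternatives covered scaling, filters, tools (DESeq2 1.42.0, limma 3.58.1), covariates and left-out libraries. No pair of libraries agreed within sampling noise (smallest chi-square per gene 16.0). The correlations of deviations between same-numbered libraries were -0.08, 0.28, 0.12 and -0.00, so the numbers were not used as pairs. The members and lists were chosen with earlier results of these data known. Genes named with values in every library were those called, the 4 most abundant and the 4 most abundant not called per kilobase of merged exons, and variant copies with their parents; of other lists, up to 4 called genes or the 2 most abundant. Others at the ends of the range were chosen after their values were seen. Some items are not reported here. Promoters are from RefSeq (GRCm38.p6) and coding sequences from GENCODE vM21 (GRCm38).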

Additional observations from a re-analysis of the deposited data

Results flagged for a closer look

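Of 40 sets of 4 libraries checked for a library far from its group, 3 were flagged, where chance flags about 1 in 20. The sets reuse the same libraries and are not independent, so 3 flags cannot be set apart from chance. Each flag involved cKO 2, which was 2.5 months old and had the lowest depth of the cKO libraries. Rps27rt was at 290.1 CPM in cKO 2, while the other cKO libraries were at 72.3, 72.6 and 105 CPM. Rps27l was at 782 CPM in cKO 2, against 222, 258 and 238 CPM in the others of its group. The small subunit's portion of ribosomal protein counts was 47.3% in cKO 2 and 44.6%, 44.5% and 44.0% in cKO 1, cKO 3 and cKO 4. Without cKO 2 the log2 fold change of Rps27rt was 1.33 and that of Rps27l 0.24. No member was singled out for a genotype difference that depends on Y-linked reads, but 2 of the 4 arms of that test held 1 library each, so it says nothing of a difference.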

How the results depend on the processing

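The median log2 fold change of the members stayed above 0 in every alternative, from 0.61 to 1.28 with 1 library left out, and the difference in their share of counts stayed between 2.32 and 4.77 percentage points. The number called higher moved widely. It was 3 with the settings reported. It became 6 with upper quartile scaling or without mitochondrial genes, and 7 without a count filter or with limma-voom. In that order, these fits called 2274, 2299, 2393 and 2304 of all genes in either direction, beside 2310 with the settings reported. Their share called higher alone is not given. The number of members called higher was 36 with scaling by library size, 38 with DESeq2 and 19 with an age term, beside 13.5%, 12.4% and 11.6% of all genes. It was 0 with the sex term, without the 2.5-month libraries, without WT 4 and cKO 4, within libraries with or without Y-linked reads, with copies summed and cKO 2 left out, and at an adjusted p under 0.01. It ran from 0 to 19 with 1 library left out (19 without WT 1, 0 without WT 2, WT 3, WT 4, cKO 2 or cKO 4), and was 21 with the transcript length offset and 9 with that offset and cKO 2 left out. The number called lower, 0, became 1 (Rpl3l) with DESeq2, with the age term, without WT 1 and with the length offset, with or without cKO 2, and ran from 0 to 1 over the left-out libraries.

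With the replicate block, 18 members were called higher and 0 lower, with a median of 1.08, beside 9.51% and 6.46% of all genes. Number 2 also marks the 2.5-month libraries, and whether the numbers mark pairs is not given in the labels. The count of all genes changed, 2310, became 941 with the sex term, 1397 without the 2.5-month libraries, 568 without WT 4 and cKO 4, 120 in libraries without and 480 in libraries with Y-linked reads, and 1155 to 3093 with 1 library left out. Cox10 reversed to a log2 fold change of 0.072 in libraries with Y-linked reads and was otherwise below 0. The cause of these changes was not tested, beyond the smaller number of libraries where some were left out.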
